A study of Mus musculus with 8 samples.

Results

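The set comprised 41 genes of mitosis and the spindle checkpoint: cyclins and Cdk1, mitotic kinases, checkpoint proteins, and parts of the kinetochore, the spindle and the cytokinesis machinery. They were taken by symbol from a count table of 55421 genes, in which each symbol had 1 row. All 41 passed the filter on low counts and were tested among 20588 genes. In a dividing cell, Cdk1 bound to cyclin A or B drives entry into mitosis. The spindle assembly checkpoint then holds the anaphase-promoting complex (APC/C) back until every kinetochore is attached, after which Cdc20 turns the APC/C on, securin and cyclin B are destroyed, and the chromatids part. Spermatogonia divide in this way before they enter meiosis, and most of these genes are transcribed in G2 and M phase, so their RNA in a culture is commonly read as a sign of dividing cells.

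RNA came from mouse spermatogonia in primary culture, of C57BL/6XDBA/2 background. The sample labels give a medium with N2 and with bFGF and GDNF at 10 ng/ml each. The study's list of media gives a higher GDNF level, and makes the nutrient restriction medium by diluting culture medium in a salt solution. By that recipe these supplements were also diluted in the libraries with nutrient restriction. There were 4 groups of 2 libraries: STRA8KO (Stra8KO below) with vehicle (Veh) or with NRRA, and SPO11KO with Veh or with NRRA, where NRRA is nutrient restriction combined with retinoic acid. The question was how loss of Stra8, the retinoic acid target that licenses entry into meiosis, or of Spo11, the enzyme that makes meiotic DNA breaks, alters the response to NRRA. Per the study's methods the cultures came from testes of neonatal mice and grew on irradiated embryonic fibroblasts, which do not divide, so RNA of those feeder cells is in each library. Cultures without either deletion are not part of the comparisons. The study describes its pairs of sequenced replicates as independent and biological, and its experiments as using other mice, tissues or cells each time. The labels tie no library to a mouse or culture, so p-values measure the spread between these samples, part of which may be technical.

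Library totals ran from 20960794 to 27038868 counts, and the 10 largest genes held 4.48% to 5.99% of them. With Veh, Stra8 was at 2 and 0 counts in the Stra8KO libraries and at only 28 and 12 counts in the SPO11KO libraries, so Veh checks the label little. With NRRA it rose to 169 and 170 counts in Stra8KO. These were 8.16 and 7.85 CPM (counts scaled to 1000000 a library), against 486 and 552 CPM in the SPO11KO libraries with NRRA. Spo11 gave no such check: it was at 3.03 and 3.26 CPM in SPO11KO with Veh and at 1.43 and 1.56 CPM in Stra8KO with Veh. With NRRA it was at 5.71 and 4.33 and at 3.28 and 3.05 CPM. By CPM it was thus not lower in the libraries named for its loss. That direction depends on the scaling: scaled to pan-germ markers (below) without Dppa3 and Nanos3, it turned with NRRA and not with Veh. The SPO11KO libraries are called labelled Spo11KO below, and each genotype direction rests on that label. By staining, the study reports no foci of the break repair protein DMC1 after NRRA in its Spo11-deficient cultures, which does not check these libraries. The germ cell label was checked with 14 pan-germ markers, of which Dppa3 was at 0 in 1 library and none in all 8, among them Ddx4 at 96.7 to 234 CPM and Dazl at 285 to 658 CPM over the 8 libraries. Levels are CPM after TMM scaling, a scaling by the bulk of genes, and a difference was called at a Benjamini-Hochberg adjusted p under 0.05 in edgeR's quasi-likelihood test over all tested genes.

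In the labelled Spo11KO cultures with Veh, levels per transcript length (TPM, which scales counts by exon length and by library) spanned a wide range within the set. Cdc20, the activator of the APC/C, was highest at 269 ± 13.4 TPM (SD, n = 2). Top2a, the topoisomerase that untangles sister chromatids, followed at 187 ± 3.27 TPM. Mki67, which coats mitotic chromosomes, Incenp, the scaffold of the chromosomal passenger complex, and Kif20a, a kinesin of the central spindle, came next at 159 ± 5.48, 153 ± 1.35 and 152 ± 3.08 TPM, 3 neighbours that lay within about their spread. At the lower end, Ndc80 and Nuf2, partners in the complex that grips microtubules, were at 21.6 ± 0.0769 and 21.5 ± 0.941 TPM and did not differ beyond that spread. Cdc25c, a phosphatase that activates Cdk1, was lowest at 6.89 ± 0.28 TPM.

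**Figure D1:**
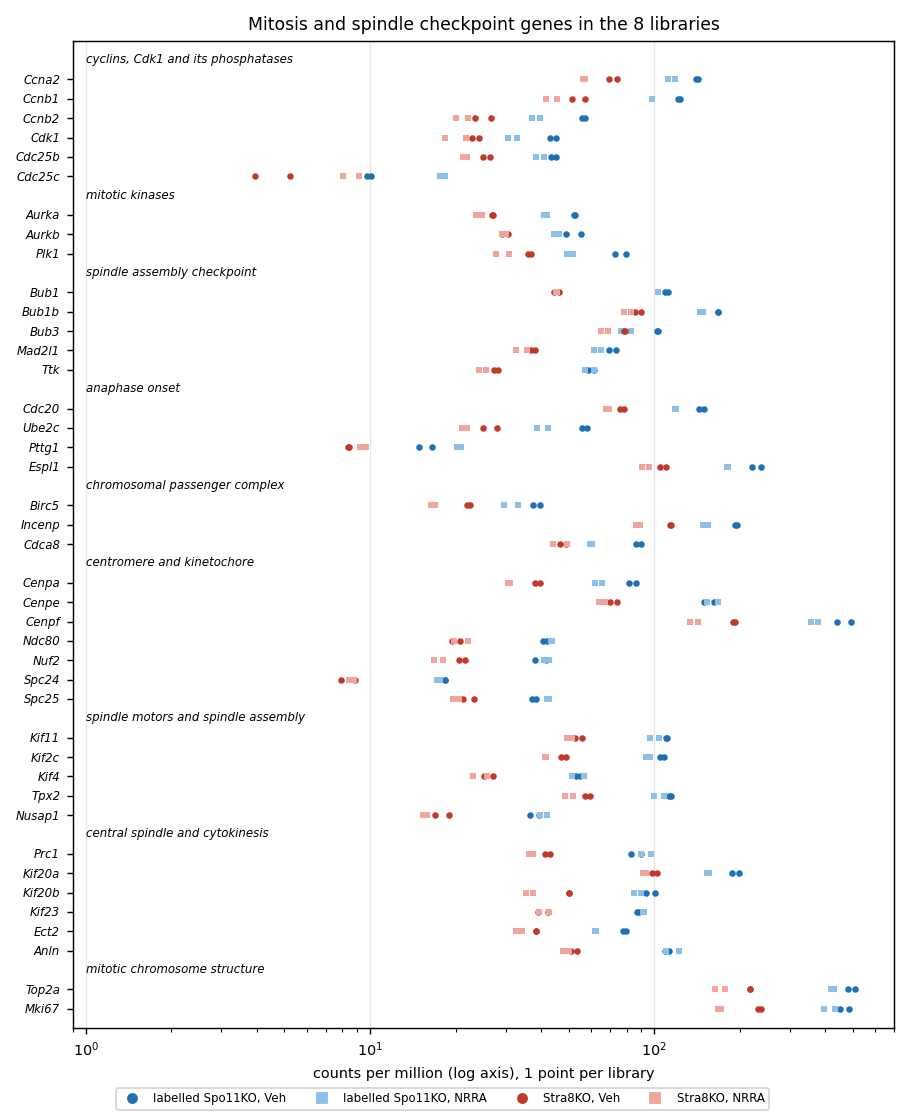
Level of each of the 41 genes in every library, in CPM on a log axis after TMM scaling, with genes grouped by role and 1 point per library (circles Veh, squares NRRA, blue labelled Spo11KO, red Stra8KO). On this scaling all red points of a gene lie left of all blue points of the same medium, though some genes change direction when libraries are scaled to pan-germ markers, and the shift between circles and squares is smaller than that between colours for most genes.

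Mitotic genes share promoter letters. The cell cycle genes homology region (CHR) is the site of the MuvB complexes, which repress these genes outside G2 and M phase as DREAM and activate them with B-Myb and Foxm1, and CCAAT boxes are bound by NF-Y. RefSeq promoter windows (GRCm38.p6, 250 bases before to 50 after the start, first window listed per gene) matched 34 of the 41 genes by symbol. The CHR letters TTTGAA, searched on both strands, were in 25 of the 34 windows (73.5%), against 18.1% of all 27025 windows and 12.4% of the windows of tested genes. CCAAT, on both strands, was also in 25 (73.5%), against 37.9% and 38.6%. Both were in 21 windows (61.8%, against 7.12% of all windows), and the 2 sets of letters overlapped in 1. A match is a description of letters and not of binding. The 5 windows without either were those of Nuf2, Nusap1, Mad2l1, Pttg1 and Birc5. Some related lists, taken up below, were also high. TTTGAA was in 55.2% and CCAAT in 69.0% of 29 windows of other spindle and cytokinesis genes. For 7 condensin genes the shares were 57.1% and 42.9%, and for 7 regulators of Cdk1 42.9% and 85.7%. They were 16.0% and 64.0% for 25 DNA replication genes, and 18.8% and 37.5% for 16 APC/C genes.

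The 5 stretches below, from 170 bases before to 30 after the start, are shown because their genes take different courses in the results: Ccnb1, Ccnb2, Cdk1 and Cdc20 fell with NRRA in both genotypes, while Prc1 fell in Stra8KO and rose in the labelled Spo11KO cultures, all on the TMM scaling. Several of these calls, among them both of Prc1, were lost without some single libraries, as given below. Capitals mark TTTGAA and CCAAT or their reverse complements. Within these stretches Ccnb1 holds 2 CCAAT and no TTTGAA, Ccnb2 3 and 2, Cdk1 2 and 2, Cdc20 2 and 1, and Prc1 1 of each.
Ccnb1 (chr13:100786457-100786656, - strand): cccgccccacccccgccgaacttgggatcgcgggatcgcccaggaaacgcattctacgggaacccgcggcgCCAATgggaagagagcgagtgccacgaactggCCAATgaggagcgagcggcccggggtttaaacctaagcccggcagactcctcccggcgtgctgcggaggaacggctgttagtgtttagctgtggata
Ccnb2 (chr9:70421525-70421724, - strand): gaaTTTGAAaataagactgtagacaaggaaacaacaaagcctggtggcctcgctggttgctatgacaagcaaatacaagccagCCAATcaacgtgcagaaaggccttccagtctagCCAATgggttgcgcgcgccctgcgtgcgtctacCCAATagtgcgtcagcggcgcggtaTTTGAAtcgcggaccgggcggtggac
Cdk1 (chr10:69352883-69353082, - strand): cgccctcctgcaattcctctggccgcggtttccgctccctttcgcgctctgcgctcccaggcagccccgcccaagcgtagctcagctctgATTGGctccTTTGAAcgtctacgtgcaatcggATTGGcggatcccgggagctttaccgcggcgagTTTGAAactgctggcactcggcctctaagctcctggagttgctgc
Cdc20 (chr4:118437314-118437513, - strand): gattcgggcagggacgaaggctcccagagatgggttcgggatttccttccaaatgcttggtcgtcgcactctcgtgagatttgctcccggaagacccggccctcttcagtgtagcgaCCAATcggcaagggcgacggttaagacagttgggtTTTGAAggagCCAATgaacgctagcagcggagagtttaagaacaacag
Prc1 (chr7:80294281-80294480, + strand): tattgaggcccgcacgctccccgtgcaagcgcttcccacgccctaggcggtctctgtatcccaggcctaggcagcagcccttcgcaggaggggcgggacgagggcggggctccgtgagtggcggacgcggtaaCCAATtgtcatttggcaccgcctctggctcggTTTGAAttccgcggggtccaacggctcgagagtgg

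Levels of cell type markers differed between the groups, and in bulk samples fewer cells of a type and less RNA per cell cannot be told apart. Summed over the 41 genes, the level was 4690 and 4830 CPM in labelled Spo11KO with Veh, 4040 and 4180 with NRRA, 2340 and 2330 in Stra8KO with Veh, and 1990 and 1940 with NRRA. The 14 pan-germ markers summed to 2080 and 2110, 2350 and 2420, 1020 and 1010, and 1380 and 1340 CPM in the same order. The 18 fibroblast markers, none of them at 0 and with Thbs1, Col1a1 and Col1a2 the most abundant with Veh in Stra8KO, summed to 10800 and 10700, 21800 and 21000, 19900 and 20400, and 41800 and 41000 CPM. That sum rests on abundant genes: with NRRA 13 of the 18 were higher and 3 lower in Stra8KO, and 14 higher and 4 lower in labelled Spo11KO, with S100a4, Lum and Prrx1 lower in both. So the mitotic sum moved with the pan-germ sum between genotypes, while with NRRA the mitotic sum went down and the pan-germ sum up.

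**Figure D2:**
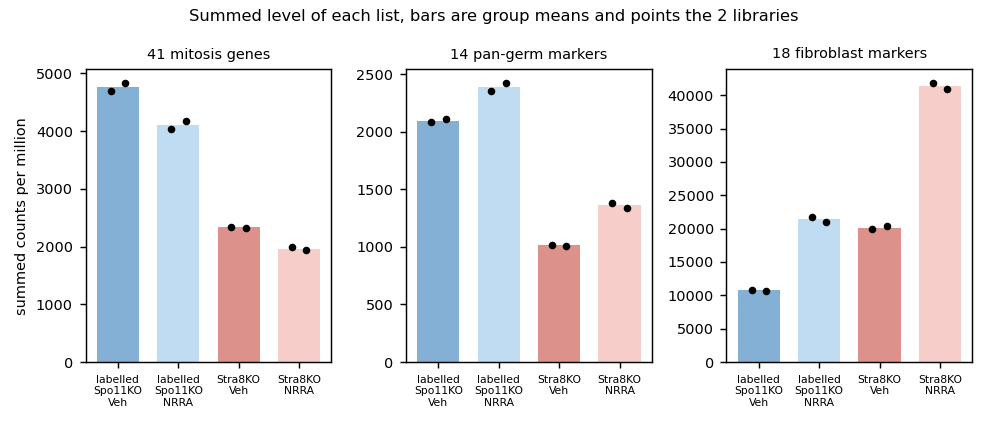
Summed CPM of the 41 mitosis genes, the 14 pan-germ markers and the 18 fibroblast markers in each group (bars, group means from 0; points, the 2 libraries). The mitosis sum runs from 1940 to 4830, and the fibroblast sum is highest in Stra8KO with NRRA, at 41000 and 41800.

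Smaller lists of other cells moved less evenly. The 10 macrophage markers summed to 39.1 to 44.3 CPM in the labelled Spo11KO libraries and 60.1 to 71.0 CPM in Stra8KO, with C1qb at 0 in 1 library. The 11 Sertoli and Leydig cell markers summed to 21.5 to 44.7 and 35.4 to 55.5 CPM, with the Leydig cell genes Insl3 and Hsd3b1 at 0 in 2 and 1 libraries. Of the marker lists of germ cell stages, undifferentiated spermatogonia markers went from 1390 and 1410 to 313 and 315 CPM with NRRA in labelled Spo11KO and from 634 and 640 to 594 and 598 in Stra8KO, where 5 of the 12 were higher (Gfra1, Zbtb16, Id4, Pou5f1 and Pax7) and 6 lower, while all 12 were lower in labelled Spo11KO. Differentiating spermatogonia markers went from 266 and 275 to 1310 and 1390 CPM, and from 150 and 161 to 478 and 480. That list holds Stra8, the gene deleted in Stra8KO. Without it the other 7 summed to 266 and 274 and then 828 and 836 CPM, and to 150 and 161 and then 470 and 472. Whether a difference in the mixture of cells has a part in the mitotic gene results was not tested.

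The first comparison asked whether NRRA changed the mitotic genes. It lowered most of them a little in both genotypes on the TMM scaling, and raised Cdc25c. In Stra8KO, 23 of 41 were lower (20.1% of tested genes were), 1 was higher (21.4% of tested genes were) and 17 were not called, with a median log2 fold change of -0.19 against 0.0135 over all tested genes and a spread between libraries of 0.0454. In labelled Spo11KO, 27 were lower (25.5% of tested genes) and 4 higher (24.7%), 10 were not called, and the median was -0.18 against 0.0129, but with total-count scaling the split was 19 lower to 10 higher, and with pan-germ scaling 14 lower to 11 higher. None of the 41 changes reached 2-fold on the TMM scaling, whereas 10.6% of tested genes did in Stra8KO and 12.4% in labelled Spo11KO. At an unadjusted p under 0.05, edgeR gave 29 lower and 1 higher in Stra8KO and 28 lower and 4 higher in labelled Spo11KO. At an adjusted p under 0.05, DESeq2 called 23 lower and 1 higher, and 21 lower and 2 higher. The libraries of the media did not overlap for 34 genes in Stra8KO (69.4% of tested genes did not) and for 36 in labelled Spo11KO (71.9%).

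**Figure D3:**
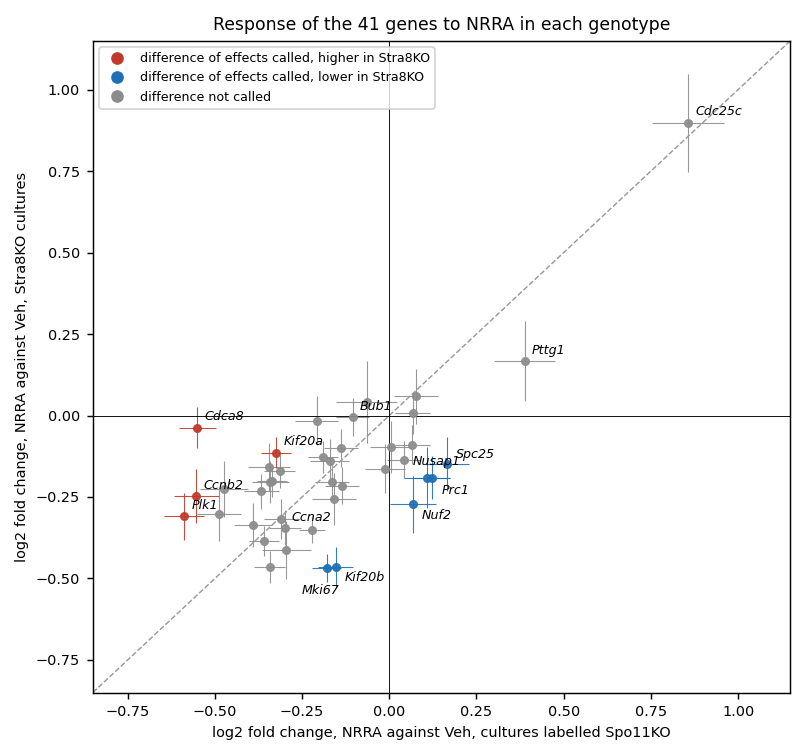
Log2 fold change of NRRA against Veh for each of the 41 genes in the labelled Spo11KO cultures (x axis) and in Stra8KO (y axis), TMM scaling, with bars of 1 SE and a dashed line of equal effects. Most points lie below 0 on both axes and Cdc25c lies apart at 0.86 and 0.90, while scaling to pan-germ markers moves all points of an axis together, so that some signs change. Red and blue mark the 10 genes whose effects differed.

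Of the cyclins, Cdk1 and its phosphatases, 5 of 6 were lower and Cdc25c was higher in both genotypes. Cdk1 itself was at 45 and 43 CPM with Veh and 33 and 30.5 CPM with NRRA in labelled Spo11KO, a log2 fold change of -0.47 (SE 0.069, edgeR adjusted p = 1.96e-07). In Stra8KO it was at 22.8 and 24.1 CPM and then 21.7 and 18.4 CPM, a log2 fold change of -0.23 (SE 0.0865, adjusted p = 0.0328). Within each genotype the media did not overlap, although in Stra8KO they parted by little.

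Ccnb1, the main mitotic cyclin, was at 121 and 123 CPM with Veh and 98.6 and 97.9 CPM with NRRA in labelled Spo11KO, and at 57 and 51.4 and then 41.6 and 45.6 CPM in Stra8KO. The log2 fold changes of -0.31 (adjusted p = 1.28e-06) and -0.32 (adjusted p = 3.21e-05) were nearly the same size. Ccnb2, the cyclin B of the Golgi, fell from 57.3 and 55.6 to 37.1 and 39.7 CPM in labelled Spo11KO (-0.55, SE 0.064, adjusted p = 1.1e-09) and from 23.5 and 26.7 to 22.2 and 20 CPM in Stra8KO (-0.25, SE 0.0831, adjusted p = 0.0146). Ccna2, the S and G2 cyclin, changed by -0.30 and -0.34. Cdc25b, the phosphatase that starts Cdk1 activation, changed by -0.16 and -0.26.

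Cdc25c, which feeds back on Cdk1 at mitotic entry, went the other way. It was at 10.1 and 9.79 CPM with Veh and 17.6 and 18.3 CPM with NRRA in labelled Spo11KO (log2 fold change 0.86, SE 0.103, adjusted p = 2.5e-09). In Stra8KO it was at 5.23 and 3.93 and then 8.06 and 9.14 CPM (0.90, SE 0.15, adjusted p = 3.56e-06). All 4 NRRA libraries lay above the Veh libraries of their genotype, and it rose under every scaling tried. Its exons share 623 bases with a gene on the opposite strand, Gm3550, which had 83 counts over all libraries against 2018 for Cdc25c. Whether the counting used strand is not given in the sources used here.

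All 3 mitotic kinases were lower with NRRA in labelled Spo11KO and 1 of 3 in Stra8KO. Plk1, which matures centrosomes and promotes mitotic entry, fell furthest of the 41 genes in labelled Spo11KO, from 79.6 and 72.7 to 49.4 and 51.9 CPM (-0.59, SE 0.0583, adjusted p = 2.04e-11). Its level in Stra8KO went from 36.8 and 35.9 to 27.8 and 30.9 CPM (-0.31, SE 0.0719, adjusted p = 0.000484). Aurkb, the kinase of the chromosomal passenger complex, was at 55.4 and 49 CPM with Veh and 46.1 and 44.4 CPM with NRRA in labelled Spo11KO (-0.21, adjusted p = 0.00474), where the media did not overlap. In Stra8KO its 29.2 and 30.7 CPM with Veh and 30.1 and 29.1 CPM with NRRA overlapped (-0.02, SE 0.075, adjusted p = 0.886). Aurka, the centrosome kinase, changed by -0.34 (adjusted p = 4.63e-06) and -0.16 (adjusted p = 0.0884).

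Of the 5 checkpoint genes, 3 were lower in labelled Spo11KO and 2 in Stra8KO. Bub3, a kinetochore adaptor for Bub1 and BubR1, changed most, by -0.37 (SE 0.0498, adjusted p = 4.33e-08) and -0.23 (SE 0.0536, adjusted p = 0.000451). Bub1b, which encodes the APC/C inhibitor BubR1, went from 167 and 168 to 145 and 149 CPM in labelled Spo11KO and from 89.7 and 85.8 to 82.9 and 78 CPM in Stra8KO (-0.19 and -0.13). Bub1, the kinase that recruits the checkpoint to kinetochores, was not called in either genotype: it was at 109 and 112 CPM with Veh and 103 CPM in both NRRA libraries in labelled Spo11KO (adjusted p = 0.0614), and at 44.5 and 46.3 and then 45.6 and 45 CPM in Stra8KO (adjusted p = 0.965). Mad2l1, the Cdc20-binding inhibitor, was called in labelled Spo11KO (-0.17) and not in Stra8KO (-0.14, adjusted p = 0.0988). Ttk, the kinase that starts the signal, was called in neither.

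Genes of anaphase onset split, with Cdc20, Ube2c and Espl1 lower in both genotypes and Pttg1 higher in labelled Spo11KO. Cdc20 was at 150 and 144 CPM with Veh and 118 and 119 CPM with NRRA in labelled Spo11KO (-0.31, SE 0.0447, adjusted p = 1.22e-07), and at 78.2 and 76.1 and then 67.5 and 69.6 CPM in Stra8KO (-0.17, SE 0.0508, adjusted p = 0.00575). Ube2c, the E2 enzyme of the APC/C, changed by -0.49 and -0.30, and Espl1, the separase, by -0.34 and -0.20. Pttg1, which encodes securin, rose in labelled Spo11KO from 16.5 and 14.9 to 20.2 and 20.9 CPM (0.39, SE 0.0871, adjusted p = 0.000231). In Stra8KO its 8.41 and 8.36 CPM with Veh lay below 9.65 and 9.19 CPM with NRRA, without a call (0.17, adjusted p = 0.294).

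The chromosomal passenger complex corrects faulty spindle attachments, and all 3 of its members listed here were lower in labelled Spo11KO. Cdca8, which encodes borealin, was at 86.3 and 89.5 CPM with Veh and 60.5 and 59.6 CPM with NRRA there (-0.55, SE 0.0542, adjusted p = 1.82e-11). In Stra8KO it was at 49.1 and 46.5 and then 49.2 and 44.1 CPM, overlapping levels (-0.04, SE 0.0621, adjusted p = 0.675). Incenp changed alike in the genotypes, by -0.36 and -0.39, and Birc5, which encodes survivin, by -0.29 and -0.41.

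Among 7 centromere and kinetochore genes, Cenpf and Cenpa fell in both genotypes and the Ndc80 complex, which binds microtubules, was mostly not called. Cenpf, a large kinetochore protein of G2 and M phase, went from 438 and 493 to 356 and 378 CPM in labelled Spo11KO (-0.34, SE 0.044, adjusted p = 5.12e-08) and from 189 and 193 to 143 and 134 CPM in Stra8KO (-0.46, SE 0.0482, adjusted p = 7.08e-10). Cenpa, the centromeric histone, changed by -0.39 and -0.33. Of the Ndc80 complex, Spc25 rose in labelled Spo11KO from 38.3 and 37.1 to 42.8 and 41.8 CPM (0.17, SE 0.0642, adjusted p = 0.029), Nuf2 fell in Stra8KO from 21.6 and 20.5 to 18.1 and 16.8 CPM (-0.27, SE 0.0874, adjusted p = 0.0104), and Ndc80 and Spc24 were called in neither. Cenpe, a kinetochore kinesin, was not called either (0.04 and -0.14, the latter at adjusted p = 0.0504).

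Spindle motors moved by small amounts. Kif2c, a microtubule depolymerase at centromeres, changed by -0.16 in labelled Spo11KO and -0.20 in Stra8KO, and Tpx2, which activates Aurka on the spindle, by -0.13 and -0.21, all 4 called. Kif11, the motor that separates spindle poles, was called in labelled Spo11KO (-0.14) and not in Stra8KO (-0.10). Kif4, a chromosome kinesin, and Nusap1, a microtubule bundler, were called in neither genotype.

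Central spindle and cytokinesis genes went in different directions in the labelled Spo11KO cultures. Prc1, which bundles the antiparallel microtubules of the midzone, was at 82.7 and 89.6 CPM with Veh and 90.1 and 97.3 CPM with NRRA there (0.12, SE 0.0524, adjusted p = 0.0479), while Kif20a went from 188 and 199 to 153 and 156 CPM (-0.32, SE 0.043, adjusted p = 2.77e-08). In Stra8KO Prc1 was lower with NRRA, at 41.2 and 42.9 and then 36.2 and 37.4 CPM (-0.19, SE 0.0654, adjusted p = 0.0169). Kif20b, a cytokinesis kinesin, fell in Stra8KO from 50.3 in both libraries to 37.5 and 35.4 CPM (-0.46, SE 0.0626, adjusted p = 4.86e-08) and changed by -0.15 in labelled Spo11KO. Ect2, which turns on RhoA for the cleavage furrow, changed by -0.34 and -0.20. Kif23, the partner of RacGAP1, and Anln, which encodes the furrow protein anillin, were called in neither genotype.

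Both chromosome structure genes fell. Mki67 was at 450 and 486 CPM with Veh and 396 and 431 CPM with NRRA in labelled Spo11KO (-0.18, SE 0.0406, adjusted p = 0.000263). In Stra8KO it was at 231 and 238 and then 172 and 167 CPM, at -0.47 the lowest log2 fold change of the 41 genes there (SE 0.0435, adjusted p = 5.32e-12). Top2a changed by -0.22 and -0.35.

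Across the genotypes, which share no libraries in these comparisons, 21 genes were called lower in both, which was 91.3% of those lower in Stra8KO and 77.8% of those lower in labelled Spo11KO. Over all tested genes 13.6% were lower in both, which was 67.5% of those lower in Stra8KO and 53.1% of those lower in labelled Spo11KO. Over the 41 genes the 2 effects had a Pearson r of 0.706 and a Spearman rho of 0.51, and without Cdc25c 0.485 and 0.472, as a description of points that share libraries within each effect. The 9 genes called in neither genotype were Bub1, Ttk, Cenpe, Ndc80, Spc24, Kif4, Nusap1, Kif23 and Anln.

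Single libraries decided some of the weaker calls. In Stra8KO 11 of 24 calls were lost without 1 library. Without Veh replicate 1 these were Cdk1 (-0.27), Cdc25b (-0.21), Bub1b (-0.09), Cdc20 (-0.15), Ube2c (-0.22), Nuf2 (-0.23) and Ect2 (-0.21). Leaving out Veh replicate 2 ended the calls of Ccnb2 (-0.15), Cdk1 (-0.19), Kif2c (-0.18), Prc1 (-0.16) and Ect2 (-0.20). Without NRRA replicate 1, Cdc20 (-0.15), Tpx2 (-0.16) and Prc1 (-0.17) were not called, and Cdk1 stood at -0.34. Without NRRA replicate 2, Ccnb2 (-0.17), Cdk1 (-0.11), Cdc25b (-0.23), Bub1b (-0.08), Nuf2 (-0.22) and Ect2 (-0.17) were not called. Cenpe became a call without Stra8KO Veh replicate 2 (-0.18) or any 1 labelled Spo11KO library (-0.14 to -0.15), and Kif20a without any 1 labelled Spo11KO library (-0.11 to -0.13).

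In labelled Spo11KO 8 of 31 calls were lost in this way. Without Veh replicate 1 these were Cdc25b (-0.13), Aurkb (-0.12) and Prc1 (0.07), and without Veh replicate 2 Mad2l1 (-0.15), Spc25 (0.13), Tpx2 (-0.13) and Kif20b (-0.11). Leaving out NRRA replicate 1 ended the calls of Mad2l1 (-0.14), Spc25 (0.14), Kif11 (-0.09), Tpx2 (-0.09) and Kif20b (-0.12). Leaving out NRRA replicate 2 ended those of Cdc25b (-0.13), Spc25 (0.17) and Prc1 (0.05), with Kif11 and Tpx2 still called at -0.21 and -0.20. The rise of Prc1 was also lost without either Stra8KO Veh library (0.12).

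The difference between the 2 NRRA effects was tested as an interaction, which is the effect in Stra8KO minus that in labelled Spo11KO. It was higher for 4 genes (14.6% of tested genes were) and lower for 6 (10.1% were), with 31 not called, so that the 10 called were 24.4% of the set against 24.7% of tested genes, and a median of -0.02 against 0.013 over all tested genes. Cdca8 stood highest at 0.51 (SE 0.0825, adjusted p = 4.57e-06), since it fell in labelled Spo11KO and overlapped in Stra8KO. Ccnb2 (0.31, SE 0.105, adjusted p = 0.0276), Plk1 (0.28, SE 0.0927, adjusted p = 0.0221) and Kif20a (0.21, SE 0.0642, adjusted p = 0.0128) also fell further in labelled Spo11KO. Kif20a shares 1271 exon bases with Cdc23 on the opposite strand, which changed by 0.13 in Stra8KO and -0.12 in labelled Spo11KO. Whether reads of Cdc23 have a part in the Kif20a value was not tested. On the other side, Nuf2 (-0.34, adjusted p = 0.0177), Prc1 (-0.31, adjusted p = 0.00409), Spc25 (-0.31, adjusted p = 0.0232) and Nusap1 (-0.30, adjusted p = 0.0492) had negative values in Stra8KO and positive ones in labelled Spo11KO. Kif20b (-0.31, adjusted p = 0.00318) and Mki67 (-0.29, adjusted p = 0.000224) fell in both and further in Stra8KO.

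Without 1 library, 6 of the 10 calls were lost. Ccnb2 ran from 0.21 without Stra8KO Veh replicate 1 through 0.23 and 0.26 without NRRA replicate 1 of Stra8KO and of labelled Spo11KO to 0.28 without labelled Spo11KO Veh replicate 1. Plk1 was lost without either Stra8KO Veh library (0.30 and 0.26), Stra8KO NRRA replicate 2 (0.20), and labelled Spo11KO Veh replicate 1 (0.21) or NRRA replicate 1 (0.24). Nuf2 was lost without Stra8KO Veh replicate 1 (-0.30) or NRRA replicate 2 (-0.29), and without labelled Spo11KO Veh replicate 1 (-0.28) or NRRA replicate 1 (-0.31). Spc25 was lost without Stra8KO Veh replicate 2 (-0.25) or NRRA replicate 2 (-0.28), and without labelled Spo11KO Veh replicate 2 (-0.29) or NRRA replicate 1 (-0.30). Nusap1 was lost without Stra8KO Veh replicate 2 (-0.22) or either NRRA library (-0.32 and -0.28), and without labelled Spo11KO Veh replicate 1 (-0.25) or NRRA replicate 2 (-0.25). Kif20a was lost without Stra8KO Veh replicate 1 (0.18) or NRRA replicate 1 (0.19), and without labelled Spo11KO Veh replicate 2 (0.17). Another 7 genes gained a call without 1 library. These were Cdk1 without Stra8KO NRRA replicate 2 (0.36), Top2a without Stra8KO NRRA replicate 1 (-0.18), Anln without labelled Spo11KO NRRA replicate 1 (-0.23), Cenpe without that library (-0.24), and, without labelled Spo11KO Veh replicate 2, Aurkb (0.28), Espl1 (0.19), Cenpe (-0.23), Cenpf (-0.21) and Top2a (-0.17).

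Of the 10 genes with a called interaction, Cdca8, Prc1, Kif20b and Mki67 kept their calls without any 1 library, and these were also the 4 called by DESeq2. The number called was 6 without Stra8KO Veh replicate 1 and 6 without labelled Spo11KO Veh replicate 1. With pan-germ scaling 39 genes were called lower and 0 higher, Ccnb2, Plk1, Kif20a and Cdca8 among those whose sign turned. Dppa3 and Nanos3, markers of early germ cells, weighed on that scaling: Dppa3 was at 6 and 5 counts with Veh and 0 and 1 with NRRA in labelled Spo11KO, and Nanos3 at 12.9 and 12.2 and then 2.89 and 1.77 CPM. Without them, an alternative chosen after seeing the data, the pan-germ scaling gave 11 lower and 1 higher. Other pan-germ markers moved too on the TMM scaling. Of the 14, the interaction was called higher for 6, among them Sall4 (0.85) and Dmrt1 (0.71), and lower for 2. With NRRA 11 were higher and 0 lower in Stra8KO, and 10 higher and 2 lower in labelled Spo11KO.

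The second comparison set the genotypes side by side within each medium. On the TMM scaling all 41 genes were lower in Stra8KO than in labelled Spo11KO, with Veh (30.7% of tested genes were lower and 31.5% higher) and with NRRA (29.1% lower and 35.2% higher), but with pan-germ scaling 24 were lower and 1 higher with Veh and 39 lower and 0 higher with NRRA, and with that scaling without Dppa3 and Nanos3 8 were lower and 6 higher with Veh, and 22 lower and 5 higher with NRRA. The TMM medians were -1.03 with Veh and -1.04 with NRRA (spread 0.0454), against 0.0017 and 0.0662 over all tested genes. At an unadjusted p under 0.05 edgeR gave 0 higher in either medium, and at an adjusted p under 0.05 DESeq2 called 0 higher and 41 lower in each. The groups did not overlap for any of the 41 genes, which also held for 79.7% of tested genes with Veh and 80.8% with NRRA. At least 2-fold lower were 22 genes with Veh (6.91% of tested genes, and 16.2% in either direction) and 23 with NRRA (7.64%, and 18.7%). The 18 fibroblast markers were all higher in Stra8KO in both media (medians 0.94 and 0.96), and 13 of 14 pan-germ markers were lower with Veh (median -0.98) and 12 of 14 with NRRA (median -0.91, 2 higher). Any part of the mixture of cells in the mitotic gene differences was not tested.

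**Figure D4:**
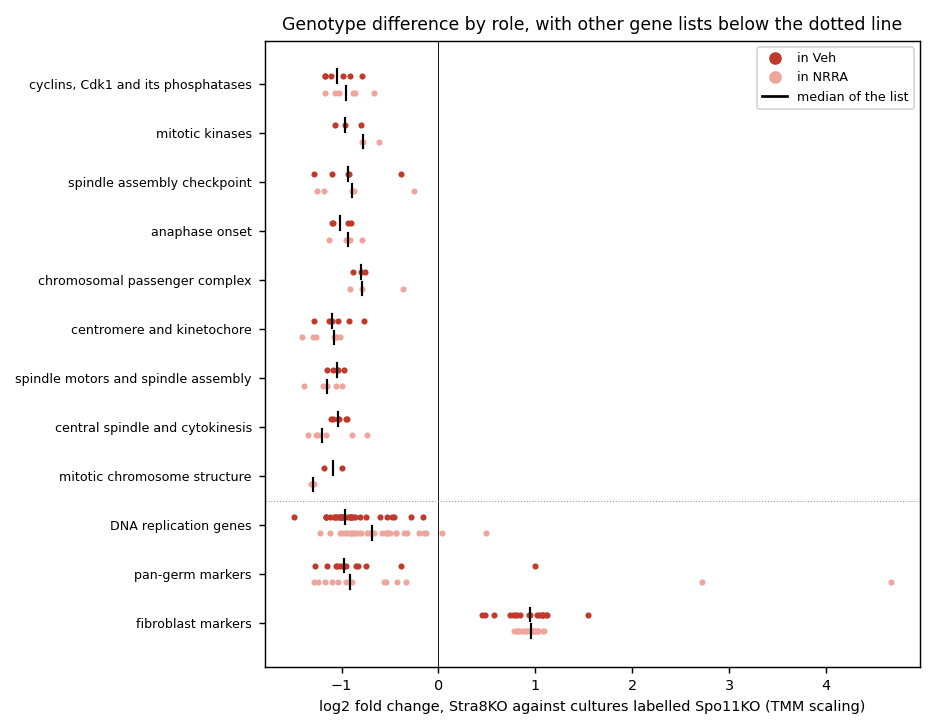
Log2 fold change of Stra8KO against labelled Spo11KO with TMM scaling for the 41 genes by role and, below the dotted line, for 31 DNA replication genes, 14 pan-germ markers and 18 fibroblast markers (dark, Veh; light, NRRA; black ticks, list medians). All mitosis genes lie left of 0 on this scaling, though many change sign with pan-germ scaling without Dppa3 and Nanos3, the fibroblast markers lie right of 0, and the pan-germ points right of 0 with NRRA are Nanos3 and Dppa3, the latter at 0 and 1 counts in labelled Spo11KO.

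Cenpf differed most, at 189 and 193 CPM in Stra8KO against 438 and 493 CPM in labelled Spo11KO with Veh (-1.29, SE 0.046, adjusted p = 3.61e-22) and 143 and 134 against 356 and 378 CPM with NRRA (-1.41, SE 0.047, adjusted p = 4.77e-23). Bub1 came next with Veh at -1.28 (SE 0.0527, adjusted p = 2.12e-23), with 44.5 and 46.3 against 109 and 112 CPM. Top2a was at 218 CPM in both Stra8KO libraries against 481 and 508 CPM (-1.18, SE 0.0398, adjusted p = 4.26e-26). With NRRA, Nusap1 was at 15.9 and 15.4 against 39.7 and 42.1 CPM (-1.39, SE 0.0783, adjusted p = 4.6e-19) and Prc1 at 36.2 and 37.4 against 90.1 and 97.3 CPM (-1.35, SE 0.0586, adjusted p = 1.07e-22).

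Bub3 differed least. It was at 78.7 and 78.2 CPM in Stra8KO against 103 and 102 CPM with Veh (-0.39, SE 0.0511, adjusted p = 1.61e-08), and at 65 and 68.6 against 76.2 and 82.6 CPM with NRRA (-0.25, SE 0.0523, adjusted p = 6.25e-05). Incenp (-0.76) and Spc25 (-0.77) were the next smallest with Veh. With NRRA these were Cdca8, at 49.2 and 44.1 against 60.5 and 59.6 CPM (-0.36, SE 0.0588, adjusted p = 8.76e-07), and Aurkb, at 30.1 and 29.1 against 46.1 and 44.4 CPM (-0.61, SE 0.0684, adjusted p = 2.56e-10). Bub3 was 0.43 higher in Stra8KO with Veh on the pan-germ scaling and 0.60 higher without Dppa3 and Nanos3, so its direction followed the scaling.

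Other genes followed in every comparison were also lower in Stra8KO on the TMM scaling, while Cdk1 and Cdc20 turned slightly higher with pan-germ scaling without Dppa3 and Nanos3. Ccnb1 differed by -1.17 with Veh (adjusted p = 1.15e-21) and -1.17 with NRRA (adjusted p = 2.1e-21). Cdk1 differed by -0.91 (adjusted p = 7.72e-14) and -0.66 (adjusted p = 1.39e-09), Cdc20 by -0.93 (adjusted p = 1.9e-20) and -0.79 (adjusted p = 5.35e-18), and Mki67 by -0.996 (adjusted p = 8.45e-23) and -1.29 (adjusted p = 4.56e-26). By role the Veh medians were -1.04 for the cyclin and Cdk1 group, -0.96 for the kinases, -0.93 for the checkpoint, -1.01 for anaphase onset, -0.80 for the passenger complex, -1.10 for the kinetochore, -1.05 for the spindle motors, -1.03 for the central spindle and -1.09 for chromosome structure. Over the 41 genes the differences in the 2 media, which share no libraries, had a Pearson r of 0.658 and a Spearman rho of 0.553, and without Bub3 0.535 and 0.519.

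**Figure D5:**
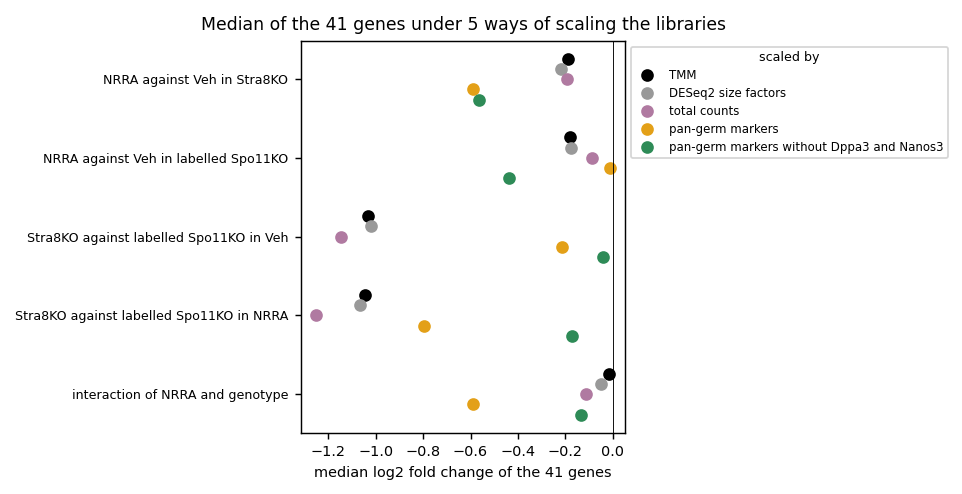
Median log2 fold change of the 41 genes in each comparison under 5 scalings of the libraries (points). The genotype medians are near -1.03 and -1.04 with TMM and -0.04 and -0.17 with pan-germ markers without Dppa3 and Nanos3, while the NRRA medians go from -0.19 and -0.18 to -0.56 and -0.44. The interaction lies between -0.02 and -0.59.

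How the libraries were scaled decided the size of the genotype difference. With pan-germ markers the all-gene median shifted by 0.81 with Veh and 0.25 with NRRA, and without Dppa3 and Nanos3 by 0.99 and 0.87. The median of the 41 genes then stood at -0.21 and -0.80, and without those markers at -0.04 and -0.17. Since a scaling shifts all genes of a comparison by 1 amount, the median of the 41 genes relative to that of all tested genes is fixed by construction, at -1.03 with Veh and -1.11 with NRRA. For NRRA, the scaling without Dppa3 and Nanos3 shifted all genes by -0.37 in Stra8KO and -0.26 in labelled Spo11KO, and gave 39 lower and 1 higher (Cdc25c) in Stra8KO and 37 lower and 1 higher in labelled Spo11KO. Most pan-germ markers themselves rose with NRRA on the TMM scaling, as given above, so they are not a steady reference for it. Relative to all tested genes, the mitotic median for NRRA was likewise fixed, at -0.20 in Stra8KO and -0.19 in labelled Spo11KO.

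Regulators around the 41 genes were taken from lists chosen with earlier results of these data known. Of 17 transcription factors of the G2 and M phase program, 7 were lower and 2 higher with NRRA in Stra8KO, and 7 lower and 1 higher in labelled Spo11KO. Among tested genes 20.1% were lower and 21.4% higher in Stra8KO, and 25.5% lower and 24.7% higher in labelled Spo11KO. Foxm1, which activates these promoters, was at 81.3 and 76.1 and then 53.2 and 61.2 CPM in Stra8KO (-0.46, SE 0.0577, adjusted p = 9.8e-09), and at 152 and 143 and then 127 and 130 CPM in labelled Spo11KO (-0.20, SE 0.0496, adjusted p = 0.000976), with an interaction of -0.26 (adjusted p = 0.00771) that was not called without Stra8KO Veh replicate 1 (-0.22) or NRRA replicate 1 (-0.17). Mybl2, which encodes B-Myb, was called in neither (-0.05 in both). E2f8, an atypical E2F repressor, had the lowest value in Stra8KO at -1.12 (adjusted p = 5.36e-14), and Nfya, a subunit of NF-Y, in labelled Spo11KO at -0.74 (adjusted p = 1.87e-16).

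Brakes on Cdk1 and parts of the APC/C gave counts to be read against the tested genes, of which 20.1% were lower and 21.4% higher with NRRA in Stra8KO and 25.5% lower and 24.7% higher in labelled Spo11KO. In the list of 10 Cdk1 inhibitory kinases and PP2A arm genes, 5 were lower and 1 higher with NRRA in Stra8KO and 6 lower and 1 higher in labelled Spo11KO. Wee1, which phosphorylates and holds Cdk1, changed by -0.17 (adjusted p = 0.00912, not called without Veh or NRRA replicate 2 of Stra8KO, both -0.16) and -0.21 (adjusted p = 0.000217), and Pkmyt1, its membrane-bound relative, rose by 0.54 (adjusted p = 5.16e-05) and 0.39 (adjusted p = 0.000168). Of 17 APC/C core and inhibitor genes, 4 were lower and 4 higher in Stra8KO, shares near those of all tested genes, and 8 were lower and 1 higher in labelled Spo11KO. Fzr1, which encodes the APC/C activator Cdh1, changed by -0.24 in Stra8KO (adjusted p = 0.000731) and -0.11 in labelled Spo11KO (adjusted p = 0.0785), where it was called without Veh replicate 2 (-0.17). Between genotypes Fzr1 differed by -0.19 with Veh (-0.14 and not called without labelled Spo11KO Veh replicate 1) and -0.31 with NRRA on the TMM scaling and was 0.63 higher in Stra8KO with Veh on the pan-germ scaling.

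Related structural genes gave mixed counts with NRRA. Of tested genes 20.1% were lower and 21.4% higher in Stra8KO, and 25.5% lower and 24.7% higher in labelled Spo11KO. Of 35 other kinetochore genes, 11 were lower and 4 higher in Stra8KO, and 14 lower and 6 higher in labelled Spo11KO, with Cenpm, a centromere protein, at 1.81 in Stra8KO (adjusted p = 8.87e-16) and an interaction of 1.69 (adjusted p = 1.32e-10). Of 8 condensin genes, 2 were lower in Stra8KO and 4 lower and 1 higher in labelled Spo11KO. Of 32 other spindle and cytokinesis genes, 11 were lower and 6 higher, and 8 lower and 6 higher, the labelled Spo11KO counts lying below those shares. The 31 DNA replication genes, which work a phase earlier, split between the genotypes. In this list 9 were lower and 5 higher in Stra8KO (median -0.07), and 22 lower and 1 higher in labelled Spo11KO (median -0.28). On the TMM scaling the interaction was called higher for 15 and lower for 1, against 14.6% and 10.1% of tested genes, with a list median of 0.18. Pan-germ scaling shifted the all-gene median of the interaction by -0.57, and without Dppa3 and Nanos3 by -0.12, so the direction of this list depends on the scaling. Rrm2, a subunit of ribonucleotide reductase, had the lowest NRRA value in both genotypes, at -0.74 and -0.998.

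Of 12 germline and meiotic forms of the cell cycle genes 11 were tested. With NRRA 7 were higher in labelled Spo11KO (24.7% of tested genes were) and 2 in Stra8KO (21.4% of tested genes were). Ccna1, the meiotic cyclin A, was at 0.505 and 0.566 CPM with Veh and 2.51 and 2.83 CPM with NRRA in labelled Spo11KO (2.31, SE 0.306, adjusted p = 2.44e-08), and at 0.537 and 0.403 and then 0.531 and 0.462 CPM in Stra8KO (0.06, adjusted p = 0.936), with an interaction of -2.25 (adjusted p = 0.00624) that was not called without Stra8KO Veh replicate 1 (-2.02). Aurkc, the meiotic Aurora kinase, rose by 1.48 (adjusted p = 2.82e-06) in labelled Spo11KO and by 1.04 (adjusted p = 0.0309) in Stra8KO, where it had 12 to 27 counts and was not called without any 1 of the 4 libraries (0.85 and 1.24 without Veh replicates 1 and 2, 1.01 and 1.07 without NRRA replicates 1 and 2). Ccnb3, a cyclin of meiosis, rose by 1.14 (adjusted p = 1.13e-06) and 0.77 (adjusted p = 0.00436). Their mitotic counterparts Ccna2, Aurkb and Ccnb1 were lower with NRRA in labelled Spo11KO on the TMM scaling, Aurkb not without Veh replicate 1 (-0.12 and not called). Ccna2 and Ccnb1 were lower by a like amount in Stra8KO (-0.34 and -0.32), where Ccna1 was not called, and Aurkb was not called there (-0.02).

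Between genotypes, the lists around the 41 genes were mostly lower in Stra8KO on the TMM scaling, like the 41 themselves, where 30.7% of tested genes were lower with Veh and 29.1% with NRRA. With Veh this held for 14 of 17 transcription factors, 7 of 10 Cdk1 regulators, 11 of 17 APC/C genes, 32 of 35 other kinetochore genes, all 8 condensin genes, 30 of 32 other spindle genes and all 31 replication genes. With NRRA the counts were 13, 8, 10, 30, 8, 30 and 29. Germline and meiotic forms were lower for 6 of 11 with Veh and for all 11 with NRRA.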

How the data were processed

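RNA was measured in 8 libraries of 4 groups. The authors deposited raw gene counts, and the submitters' processing notes name STAR 2.6.1c, featureCounts 1.6.4, bcl2fastq and the mm10 build. How strand and reads that map to several places were counted is not given in the sources used here, so antisense overlaps (Ccna2, Cdc25b, Cdc25c, Plk1, Cdc20, Ube2c, Cdca8, Kif4, Nusap1, Prc1 and Kif20a share exon bases with a gene on the other strand) and processed copies (Ccnb1, Ccnb2, Kif4) leave some uncertainty. Kif20a shares 1271 bases with Cdc23 (25725 and 20051 counts over all libraries), and Prc1 shares 911 bases with Rccd1 (12541 and 5686 counts). The members and lists were chosen with earlier results of these data known.

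Counts were filtered by filterByExpr (20588 genes, 99.88% of counts), scaled by TMM (factors 0.943 to 1.1) and fitted in 1 group-means model of all 8 libraries with edgeR 4.0.16 in R 4.3.3 (robust quasi-likelihood, two-sided, Benjamini-Hochberg over all tested genes), tested on simulated data. The common biological coefficient of variation was 3.39%. The spread of a list median is the pooled SD of the group's library medians, carried through the comparison. TPM used GENCODE M21 exon lengths, which held 99.67% of gene IDs. Library pairs differed by more than sampling noise.

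Named genes were, per comparison, the 3 called highest and lowest, those called against the majority, those not called where 8 or fewer, 6 fixed members (Ccnb1, Cdk1, Aurkb, Bub1, Cdc20, Mki67), 7 fixed regulators, and the extreme called gene of a list. Alternatives were other scalings (DESeq2 1.42.0 size factors, total counts, pan-germ markers), filters, DESeq2's Wald test, the older edgeR method, 4 libraries alone, a block, thresholds, each library left out and, chosen after seeing the data, pan-germ scaling without Dppa3 and Nanos3. RefSeq promoters (GRCm38.p6, the patch release of mm10) had no entry used here for Kif20a, Incenp, Tpx2, Aurkb, Cdc25c, Spc24 and Ccna2.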

Additional observations from a re-analysis of the deposited data

Results flagged for a closer look

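The NRRA effect differed between the genotypes, by the test of the difference itself on the TMM scaling, for 10 of the 41 genes (edgeR's quasi-likelihood test), which is 24.4% of them and no more than the 24.7% of all tested genes. The difference, Stra8KO minus labelled Spo11KO on the log2 scale, was 0.51 for Cdca8, 0.31 for Ccnb2, 0.28 for Plk1 and 0.21 for Kif20a. It was -0.34 for Nuf2, -0.31 for each of Prc1, Spc25 and Kif20b, -0.30 for Nusap1 and -0.29 for Mki67. With pan-germ scaling Cdca8, Ccnb2, Plk1 and Kif20a turned negative. No group had the 4 samples that a check for single outlying libraries needs.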

How the results depend on the processing

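The number of genes called and the median of the 41 kept their direction under DESeq2 size factors, total counts, both count filters, the older edgeR quasi-likelihood method and the fit of 4 libraries alone. The values that moved were these. With total counts the medians were -0.088 for NRRA in labelled Spo11KO, -1.15 and -1.25 for the genotype difference with Veh and with NRRA, and -0.11 for the interaction. Without a count filter the medians were -0.13 for NRRA in labelled Spo11KO and -1.10 for the genotype difference with NRRA, and with 4 libraries alone the latter was -1.12. DESeq2's Wald test and an adjusted p under 0.01 each called 4 genes for the interaction, against 10. At 2-fold or more, 0, 0, 22, 23 and 0 genes were called for NRRA in Stra8KO, NRRA in labelled Spo11KO, the genotype difference with Veh, that with NRRA, and the interaction.

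With pan-germ scaling, 40 genes were called for NRRA in Stra8KO (median -0.59), the median for NRRA in labelled Spo11KO was -0.010, 25 genes were called for the genotype difference with Veh (median -0.21), the median with NRRA was -0.80, and 39 were called for the interaction (median -0.59). Without Dppa3 and Nanos3, chosen after seeing the data, the values were 40 (-0.56) and -0.44 for NRRA, 14 (-0.043) and 27 (-0.17) for the genotype difference, and a median of -0.13 for the interaction. Pan-germ scaling reversed for NRRA in Stra8KO Ndc80 (-0.34), Spc24 (-0.36), Kif23 (-0.39), and for NRRA in labelled Spo11KO Cdc25b (0.013), Kif11 (0.032), Kif2c (0.0070), Tpx2 (0.035), Kif20b (0.015), and for the genotype difference with Veh Cdc25b (0.028), Aurkb (0.015), Bub3 (0.43), Birc5 (0.021), Incenp (0.059), Spc25 (0.051), Fzr1 (0.63), Ccnb3 (0.62), and for the interaction Ccnb2 (-0.26), Cdk1 (-0.32), Cdc25c (-0.53), Aurka (-0.38), Aurkb (-0.38), Plk1 (-0.29), Bub1 (-0.47), Bub1b (-0.51), Bub3 (-0.43), Mad2l1 (-0.54), Cdc20 (-0.43), Ube2c (-0.38), Espl1 (-0.44), Cdca8 (-0.057), Cenpa (-0.51), Spc24 (-0.46), Kif11 (-0.53), Kif20a (-0.36), Ect2 (-0.43), Wee1 (-0.53). Without Dppa3 and Nanos3, the reversed values were for NRRA in Stra8KO Ndc80 (-0.32), Spc24 (-0.33), Kif23 (-0.37), and for NRRA in labelled Spo11KO Cenpe (-0.22), Ndc80 (-0.18), Nuf2 (-0.19), Spc25 (-0.092), Kif4 (-0.25), Prc1 (-0.14), Kif23 (-0.19), Anln (-0.19), and for the genotype difference with Veh Ccna2 (0.0081), Cdk1 (0.078), Cdc25b (0.20), Aurka (0.027), Aurkb (0.19), Bub1b (0.057), Bub3 (0.60), Mad2l1 (0.064), Cdc20 (0.055), Pttg1 (0.083), Birc5 (0.19), Incenp (0.23), Cdca8 (0.11), Nuf2 (0.070), Spc25 (0.22), Tpx2 (0.017), Kif20a (0.042), Kif20b (0.035), Foxm1 (0.083), Wee1 (0.025), Fzr1 (0.80), Aurkc (0.054), Ccnb3 (0.79), and for the genotype difference with NRRA Ccnb2 (0.0062), Cdk1 (0.21), Aurka (0.097), Aurkb (0.26), Plk1 (0.086), Bub1b (0.0035), Bub3 (0.62), Cdc20 (0.082), Incenp (0.085), Cdca8 (0.51), Kif20a (0.13), Spo11 (0.22), Fzr1 (0.56), Ccnb3 (0.30). These scalings shift every gene of a comparison by 1 amount, by their construction.

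Leaving out 1 library at a time gave 17 to 26 calls (medians -0.21 to -0.17) for NRRA in Stra8KO, 26 to 31 (-0.23 to -0.18) in labelled Spo11KO, 41 to 41 (-1.04 to -1.01) and 41 to 41 (-1.06 to -0.997) for the genotype difference with Veh and NRRA, and 6 to 13 (-0.039 to 0.0048) for the interaction, whose median turned positive without Stra8KO Veh replicate 1 (0.0048) or labelled Spo11KO Veh replicate 1 (0.0019). Where a group was left with 1 library, that library was assumed to vary like the other groups. Replicate numbers gave no sign of pairing, with correlations of deviations between same-numbered libraries of -0.0665 to 0.107 over 16661 genes. With 2 libraries a group this cannot exclude pairing. With the replicate number as a block (replicate block), 25, 31, 41, 41 and 10 genes were called, with medians of -0.19, -0.18, -1.03, -1.04 and -0.02. Depth limits genes such as Aurkc, at 12 to 105 counts a library.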
